A study of Mus musculus with 12 samples.

Results

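The genes described here mark spinal motor neurons and the neurofilament cytoskeleton of long axons. They are 10 of the 19938 genes that could be named by a single symbol on whole-transcript arrays of injured mouse spinal cord. The 10 were taken by symbol from the platform's annotation: Chat, Slc18a3 and Slc5a7 of acetylcholine transmission, the homeodomain factors Isl1 and Mnx1, the receptor Ret, and the intermediate filament genes Prph, Nefl, Nefm and Nefh. All 10 were found and each had 1 probe set, so no choice between probe sets arose. The 12 arrays fell into 3 groups of 4: mice with a knockout of Il1a (Il1a KO), mice with a knockout of Il1b (Il1b KO) and wild type mice. Every mouse was on a C57BL/6 background, was 8 to 12 weeks old and had received a spinal contusion of 50 kdyn, and 6 mm of cord around the lesion was taken 24 h later. All arrays came from injured cord, so the comparisons are between genotypes after injury and not between injured and uninjured tissue. According to the labels the arrays are biological replicates, but animals, sex and the details of either knockout allele are not given, so a p-value here measures the spread between these arrays.

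Motor neurons of the ventral horn release acetylcholine onto muscle. Chat encodes choline acetyltransferase, which makes the transmitter, Slc18a3 encodes the vesicular acetylcholine transporter, and Slc5a7 encodes the transporter that takes choline back up. Isl1 and Mnx1 encode homeodomain transcription factors that set motor neuron identity in the embryo. Ret is the signalling receptor for ligands of the GDNF family, which support motor and sensory neurons. Nefl, Nefm and Nefh encode the light, medium and heavy neurofilament subunits, which fill large axons and set their calibre, and Prph encodes peripherin, an intermediate filament of neurons with axons that leave the cord. Several of these genes are not confined to motor neurons: other cholinergic neurons of the cord use Chat, Slc18a3 and Slc5a7, sensory neurons express Ret and Prph, and most large neurons contain neurofilaments.

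The sequences just before the starts of Chat, Slc18a3, Slc5a7 and Prph are shown because, among the 6 genes matched to a promoter, the levels of Slc18a3, Slc5a7 and Prph went with that of Chat from array to array (r = 0.78 to 0.85), as described further on. RefSeq promoters of the GRCm38.p6 build were matched for Mnx1, Isl1, Chat, Slc18a3, Prph and Slc5a7. Each line gives the 250 bases before the start, read 5′ to 3′ on the gene's own strand, with matches to the searched letters in capitals. Chat lay at chr14:32465910-32466159 on the minus strand, Slc18a3 at chr14:32464851-32465100 on the minus strand, Slc5a7 at chr17:54299035-54299284 on the minus strand and Prph at chr15:99054924-99055173 on the plus strand. The Prph window lies inside the annotated Prph interval (chr15:99053579-99058978), because the promoter table uses a start further in.
Chat: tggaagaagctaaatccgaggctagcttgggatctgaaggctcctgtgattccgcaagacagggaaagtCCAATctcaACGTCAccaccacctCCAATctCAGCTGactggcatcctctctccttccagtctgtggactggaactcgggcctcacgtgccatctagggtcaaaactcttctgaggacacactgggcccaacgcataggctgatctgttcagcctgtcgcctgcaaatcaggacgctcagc
Slc18a3: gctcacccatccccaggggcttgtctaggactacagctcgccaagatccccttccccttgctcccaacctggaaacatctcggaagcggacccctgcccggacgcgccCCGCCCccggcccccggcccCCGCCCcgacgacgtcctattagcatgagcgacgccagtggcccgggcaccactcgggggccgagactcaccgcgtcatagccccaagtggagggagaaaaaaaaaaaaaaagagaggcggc
Slc5a7: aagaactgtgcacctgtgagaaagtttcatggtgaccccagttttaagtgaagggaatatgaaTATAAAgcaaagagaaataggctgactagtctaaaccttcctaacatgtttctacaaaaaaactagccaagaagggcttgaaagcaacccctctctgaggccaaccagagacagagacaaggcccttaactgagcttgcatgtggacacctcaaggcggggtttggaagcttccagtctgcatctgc
Prph: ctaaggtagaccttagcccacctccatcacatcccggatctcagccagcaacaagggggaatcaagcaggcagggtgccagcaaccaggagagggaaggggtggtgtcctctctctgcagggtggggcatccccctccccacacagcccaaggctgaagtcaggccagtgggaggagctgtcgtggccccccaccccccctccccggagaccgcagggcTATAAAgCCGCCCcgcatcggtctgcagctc

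Both strands of these 6 promoters were searched for short letter strings of known promoter elements. The letters of the first element, TATAAA, lay 31 bases before the start of Prph and 187 bases before that of Slc5a7, and 12.4% of all 32851 promoters in the table held them. Letters of the GC-rich element bound by Sp1, written GGGCGG, were matched on the opposite strand, 2 times in Slc18a3 and once each in Prph and Mnx1, and 32.7% of all promoters held them. The promoter of Chat held the element CCAAT 2 times (33.8% of promoters). It also held the E-box letters CAGCTG (13% of promoters) and, on the opposite strand, the cAMP response letters TGACGT (6.47%). Isl1 held each of those 3 elements of Chat too, and Mnx1 held the first of them at 3 places. A homeodomain string, TAATTA, was present in 4.84% of promoters and matched none of these 6. No string was shared by all 4 of the printed promoters, none of the matches printed overlapped another, and a match is a description of letters only. Chat and Slc18a3 form a nested locus in which Slc18a3 (chr14:32462437-32464850) lies inside the Chat interval (chr14:32408203-32465909) on the same strand, and their upstream ends are 1059 bases apart. Nefl (chr14:68083863-68089095) and Nefm (chr14:68119545-68125004) are neighbours on the same chromosome, 30450 bases apart.

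Signals over these genes had log2 medians of 8.16 to 8.2 on the 12 arrays, and r across genes was 0.993 to 0.999 for pairs of arrays. The gene targeted in each knockout was read first. Il1b averaged 6.42 in the Il1b KO arrays and 7.83 in wild type, which limma called lower (log2 fold change -1.42, adjusted p = 2.64e-06). Il1a averaged 4.98 in the Il1a KO arrays and 5.87 in wild type (log2 fold change -0.90, adjusted p = 0.00372), but it was also lower in the Il1b KO arrays, at 5.10 (log2 fold change -0.77, adjusted p = 0.0039). The contrast of the knockouts did not pass for Il1a (-0.13, limma adjusted p = 0.849), and its probe set is dim (percentile 9.37 of gene signals). The Il1a signal therefore does not tell the knockouts apart. Il1a KO replicate 1 stood apart from the other 11 arrays in sex-linked genes, with Xist at 6.47 against 11.9 to 12.2 and Eif2s3y at 9.15 against 3.65 to 3.94. Log2 fold changes of the 10 genes in the Il1a KO that turned in sign or moved by over 1.5 times without that array are therefore also given without it. In bulk tissue, fewer cells of a type and less RNA per cell cannot be told apart.

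No motor neuron or neurofilament gene passed the test in any of the 3 comparisons, which were fitted with limma across all genes and adjusted by Benjamini-Hochberg with 0.05 as the threshold. In Il1a KO against wild type, 0 of 10 passed, beside 34 genes or 0.171% of all 19938, and 0 of 10 had an unadjusted p under 0.05, beside 8.32% of all genes. In Il1b KO against wild type, 0 of 10 passed beside 0.813% of all genes, and 1 of 10 (Slc5a7) had an unadjusted p under 0.05 beside 13% of all. Between the Il1a KO and the Il1b KO, 0 of 10 passed beside 0.652%, and 0 of 10 had an unadjusted p under 0.05 beside 7.79%. The arrays of the groups overlapped for all 10 genes in Il1a KO against wild type (0 of 10 without overlap, beside 5.06% of all genes) and between the knockouts (0 of 10, beside 7.24%). In Il1b KO against wild type 1 of 10, again Slc5a7, had no overlap, beside 7% of all genes. These shares are not a result about the members.

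The differences in array signal were small as well as uncalled. The median log2 fold change of the 10 genes was -0.02 in the Il1a KO (all genes 0.0003) and 0.0068 in the Il1b KO (all genes 0.004). In the Il1a KO 4 of the 10 lay above 0, beside 50.2% of all genes, and in the Il1b KO 7 of the 10, beside 52%. Mnx1 (-0.10) and Nefl (0.07) were the extremes in the Il1a KO, and Slc5a7 (-0.15) and Nefl (0.05) those in the Il1b KO. Without Il1a KO replicate 1 the 10 log2 fold changes in the Il1a KO ran from -0.13 (Slc18a3) to 0.06 (Nefl), and 0 of 10 passed. No 95% interval reached beyond a 1.21-fold difference in either direction in a knockout against wild type, the bound of Mnx1 in the Il1a KO and of Slc5a7 in the Il1b KO. Between the knockouts the farthest bound was 1.19-fold, again of Slc5a7. These are bounds on array signal and not on transcript amount. The plot of differences shows that all intervals but 1, that of Slc5a7 in the Il1b KO, cover 0.

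**Figure D1:**
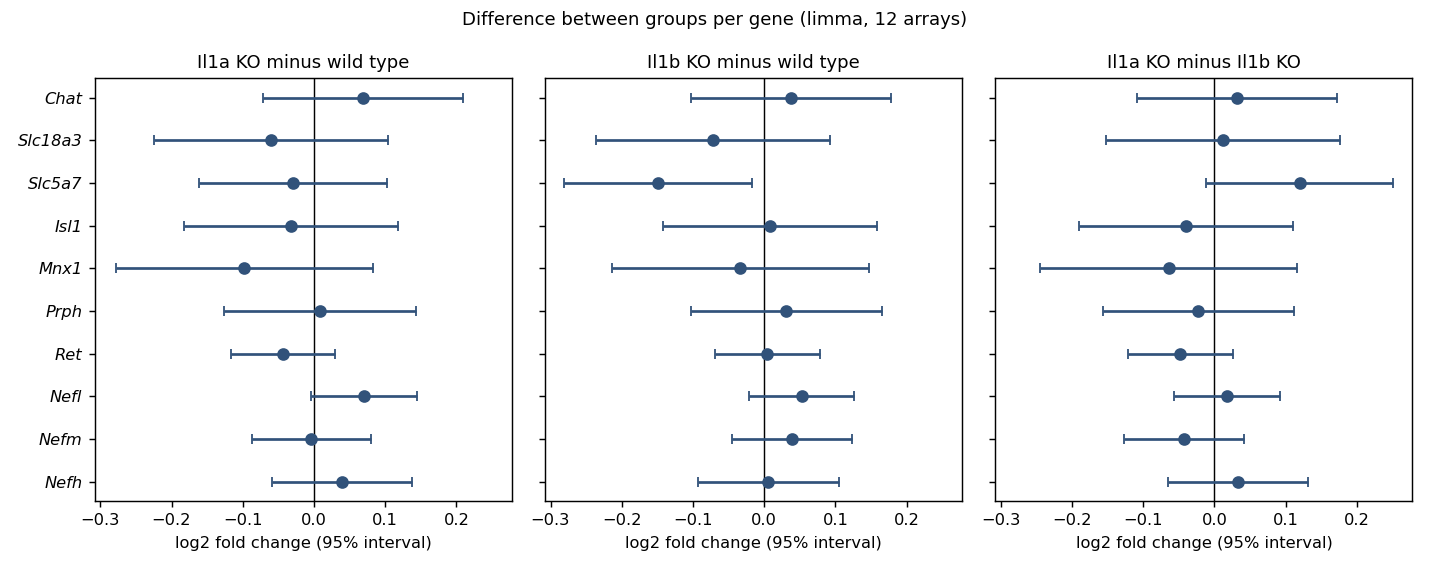
Log2 fold change of each gene (points) with its 95% interval from limma (bars) for Il1a KO minus wild type, Il1b KO minus wild type and Il1a KO minus Il1b KO, 4 arrays per group. The interval of Slc5a7 in the Il1b KO, -0.28 to -0.02, is the 1 that does not cover 0, and its adjusted p is 0.322.

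Among the cholinergic genes, Slc5a7 in the Il1b KO lay farthest from wild type. Its log2 signal was 9.14, 9.13, 9.10 and 9.12 in the Il1b KO arrays, against 9.35, 9.18, 9.28 and 9.28 in wild type. The lowest wild type array lay above the highest Il1b KO array, so the groups did not overlap. The log2 fold change was -0.15 (SE 0.061, unadjusted p = 0.0294), a 1.11-fold lower level, and it did not pass over all genes (limma adjusted p = 0.322). The 4 Il1b KO arrays lay within a narrow band (SD 0.017), whereas the Il1a KO arrays read 9.38, 9.05, 9.26 and 9.28 (SD 0.138) and covered the range of both other groups. Slc5a7 in the Il1a KO therefore differed from wild type by less than its spread (log2 fold change -0.03, adjusted p = 0.973), nor did the contrast of the knockouts pass (0.12, adjusted p = 0.695). Without Il1a KO replicate 1 these values were -0.08 and 0.07.

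Chat, which makes acetylcholine, read 8.33, 8.02, 8.08 and 8.18 in the Il1a KO arrays, 8.08, 8.18, 8.18 and 8.05 in the Il1b KO arrays, and 8.18, 8.01, 8.08 and 8.07 in wild type. The group means followed the order Il1a KO (8.15), Il1b KO (8.12) and wild type (8.09), with every neighbouring pair overlapping. Its log2 fold change was 0.07 in the Il1a KO (SE 0.065, adjusted p = 0.886) and 0.04 in the Il1b KO (adjusted p = 0.855). The first value rested on Il1a KO replicate 1, the highest of all 12 arrays, and was 0.0088 without it.

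Slc18a3, the vesicular transporter gene nested in the Chat locus, read 10.20, 9.85, 10.01 and 9.94 in the Il1a KO arrays, 9.91, 10.10, 9.99 and 9.95 in the Il1b KO arrays, and 10.22, 9.97, 9.98 and 10.07 in wild type. Its mean was highest in wild type, the reverse of Chat, but all 3 groups overlapped and the log2 fold changes of -0.06 in the Il1a KO and -0.07 in the Il1b KO were smaller than their SE of 0.076. Without Il1a KO replicate 1 the value in the Il1a KO was -0.13 (adjusted p = 0.985). For the cholinergic genes no direction in either knockout was thus common to all 3, and none of the 3 passed.

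**Figure D2:**
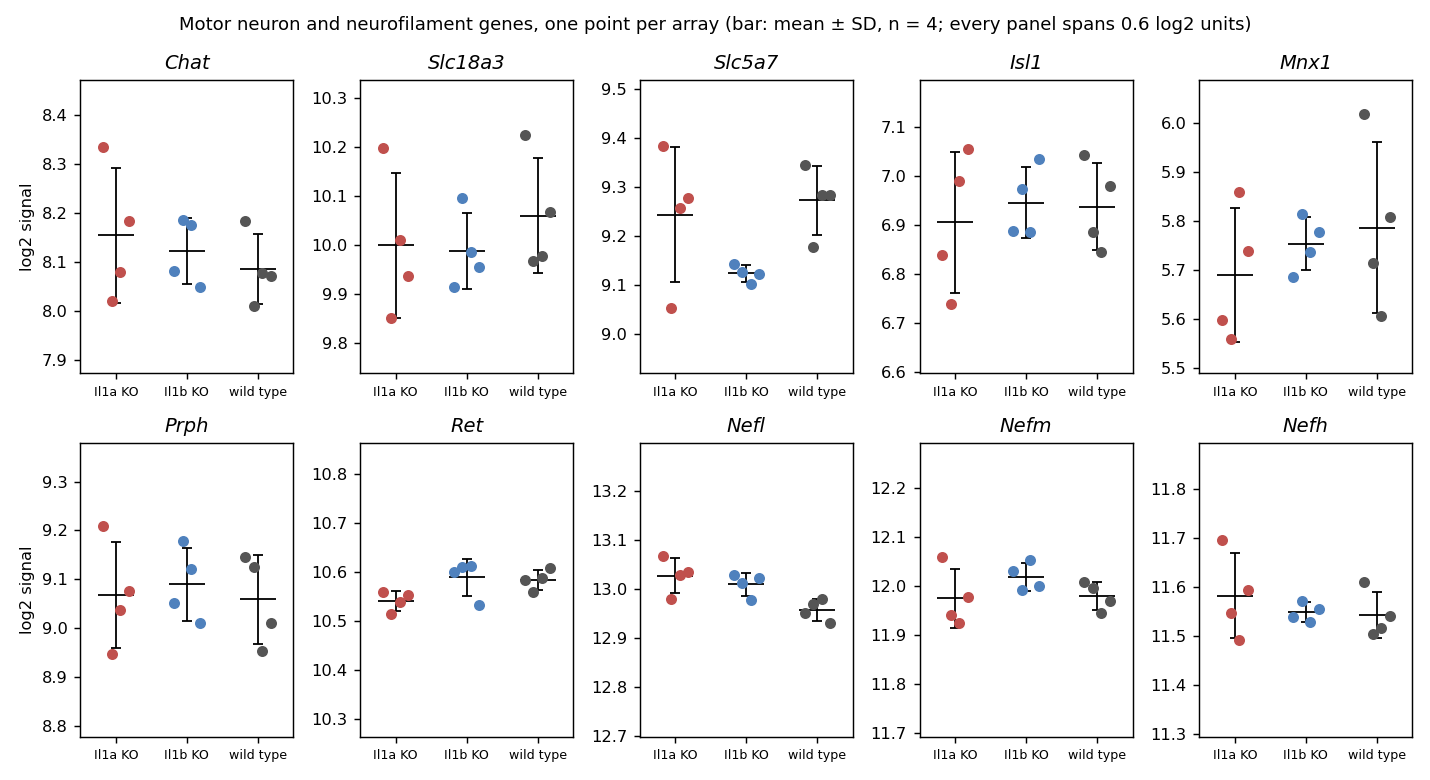
Log2 signal of each of the 10 genes on every array, by group (Il1a KO, Il1b KO, wild type), with bars for the mean ± SD of 4 arrays and each panel spanning 0.6 log2 units. The groups overlap in every panel except that the 4 Il1b KO arrays of Slc5a7 (9.10 to 9.14) lie below all wild type arrays (9.18 to 9.35).

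The homeodomain genes were the dimmest of the 10. Averaged over all arrays, Mnx1 lay at percentile 13.1 of gene signals and Isl1 at percentile 28.9, against 49.1 to 99.8 for the other 8 genes. No detection calls were used, so it is not known how much of a dim signal is transcript, and probe sets of different genes do not give relative transcript amounts. Mnx1 read 5.60, 5.56, 5.86 and 5.74 in the Il1a KO arrays, 5.69, 5.81, 5.74 and 5.78 in the Il1b KO arrays, and 6.02, 5.71, 5.61 and 5.81 in wild type. The wild type arrays alone spread over most of the range of all 12, and the log2 fold changes of -0.10 in the Il1a KO (SE 0.083, adjusted p = 0.863) and -0.03 in the Il1b KO (adjusted p = 0.901) lay inside that spread. Isl1 read 6.84, 6.74, 6.99 and 7.05 in the Il1a KO arrays, 6.89, 6.97, 6.88 and 7.04 in the Il1b KO arrays, and 7.04, 6.88, 6.85 and 6.98 in wild type. Its 3 group means lay within 6.91 to 6.95, closer together than the arrays of any of the groups, and its log2 fold change in the Il1a KO was -0.03, or -0.01 without Il1a KO replicate 1.

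Ret varied least. It read 10.56, 10.52, 10.54 and 10.55 in the Il1a KO arrays, 10.60, 10.61, 10.61 and 10.53 in the Il1b KO arrays, and 10.58, 10.56, 10.59 and 10.61 in wild type. Its within-group SD of 0.027 was at percentile 1.1 of all genes and at percentile 6.47 of genes of like brightness. The log2 fold change was -0.04 in the Il1a KO (95% interval -0.12 to 0.03, adjusted p = 0.845), and the Il1b KO mean equalled that of wild type to 2 decimals (10.59). Il1b KO replicate 4 lay below the other arrays of its group.

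Of the intermediate filament genes, Nefl showed the smallest p of the 10 in the Il1a KO. Nefl read 13.07, 12.98, 13.03 and 13.04 in the Il1a KO arrays, 13.03, 13.01, 12.98 and 13.02 in the Il1b KO arrays, and 12.95, 12.97, 12.98 and 12.93 in wild type. Each knockout touched wild type at 1 array near 12.98 and was otherwise above it. The log2 fold change was 0.07 in the Il1a KO (SE 0.034, unadjusted p = 0.0614, adjusted p = 0.634) and 0.05 in the Il1b KO (adjusted p = 0.558), a 1.05-fold and a 1.04-fold difference in mean. Nefl is among the brightest genes on these arrays (percentile 99.8), and its within-group SD was at percentile 1.25 of all genes and at percentile 7.07 of genes of like brightness.

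The medium subunit gene Nefm read 12.06, 11.94, 11.93 and 11.98 in the Il1a KO arrays, 12.03, 11.99, 12.05 and 12.00 in the Il1b KO arrays, and 12.01, 12.00, 11.94 and 11.97 in wild type. Its mean was highest in the Il1b KO, by 0.04 over wild type (adjusted p = 0.718), and was equal to 2 decimals in the Il1a KO and wild type (11.98). Its log2 fold change in the Il1a KO was -0.0035, and -0.03 without Il1a KO replicate 1. The heavy subunit gene Nefh read 11.70, 11.55, 11.49 and 11.59 in the Il1a KO arrays, 11.54, 11.57, 11.53 and 11.56 in the Il1b KO arrays, and 11.61, 11.50, 11.52 and 11.54 in wild type. Il1a KO replicate 1 again gave the highest value, and the difference of 0.04 in the Il1a KO (adjusted p = 0.919) was 0.0009 without it. In the Il1b KO Nefh gave 0.0059, so the values of all 3 subunits lay above 0 there, whereas in the Il1a KO that of Nefm lay below it. None of the 3 passed in either knockout.

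Prph, the intermediate filament gene of neurons with peripheral axons, read 9.21, 8.95, 9.04 and 9.08 in the Il1a KO arrays, 9.05, 9.18, 9.12 and 9.01 in the Il1b KO arrays, and 9.15, 9.12, 8.95 and 9.01 in wild type. The 3 group means of 9.07 (Il1a KO), 9.09 (Il1b KO) and 9.06 (wild type) differed by less than the SD of any of the groups (0.074 to 0.108). Its log2 fold changes were 0.0088 in the Il1a KO (adjusted p = 0.996) and 0.03 in the Il1b KO (adjusted p = 0.871). The first turned to -0.04 without Il1a KO replicate 1.

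Array to array, several of these genes varied together. After subtracting each group's mean, Chat correlated with Slc18a3 at r = 0.85 (rho 0.74), with Nefh at 0.83 (rho 0.82), with Slc5a7 at 0.80 (rho 0.63) and with Prph at 0.78 (rho 0.68) over the 12 arrays. Slc18a3 was among the 13 of 19937 other genes that followed Chat at this r or above, and the median r of Chat with all other genes was 0.08. These correlations are descriptions over arrays that share a genotype within a group, and the labels used here name no processing run. Whether the probe sets of the nested Chat and Slc18a3 genes share target sequence was not tested. They leaned on Il1a KO replicates 1 and 2, the highest and lowest Chat arrays of their group. Without these 2 arrays the r of Chat was 0.69 with Slc18a3, 0.71 with Nefh, 0.52 with Slc5a7 and 0.57 with Prph. Slc5a7 and Prph, which correlated at 0.53 over 12 arrays, gave -0.11 without them.

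The homeodomain genes formed a pair of their own. Isl1 and Mnx1 correlated at r = 0.82 (rho 0.87), and at 0.89 without the 2 arrays farthest from the median of Isl1, Il1a KO replicates 4 and 2. Against the other 8 genes their 16 correlations had a median of 0.18 and ranged from -0.12 to 0.49. With 1 array left out, the r of Isl1 with Mnx1 stayed within 0.80 to 0.89. That of Slc18a3 with Mnx1 ran from 0.22 to 0.91 and that of Slc5a7 with Isl1 from -0.04 to 0.80. The separation from the cholinergic genes thus depended on single arrays. Isl1 was 1 of 427 genes (2.14% of all others) that followed Mnx1 at this r or above, and both probe sets are dim.

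The neurofilament subunits did not vary as 1 unit. Nefm and Nefh correlated at r = 0.73 (rho 0.50), but at 0.23 without Il1a KO replicates 1 and 3. Nefl correlated at 0.31 with Nefm and 0.38 with Nefh, and each of these turned below 0 when Il1a KO replicate 1 was left out (-0.19 and -0.06). Nefl was nearer to Slc5a7 (0.64) than to either of the other subunits, and without Il1a KO replicates 1 and 2 that value was -0.04. Over all 45 pairs of the 10 genes the median r was 0.41.

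**Figure D3:**
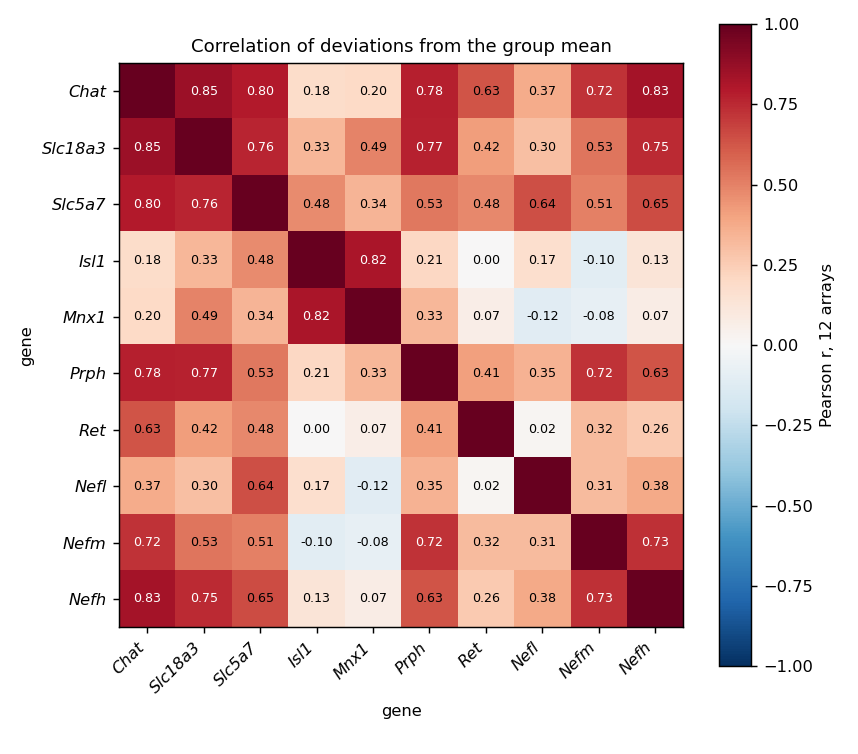
Pearson r over 12 arrays between each pair of the 10 genes, on deviations from the group means (colour scale from -1 to 1, values written in the cells). Chat, Slc18a3, Slc5a7 and Prph share values of 0.53 to 0.85, Isl1 and Mnx1 share 0.82, and the cells between these sets are mostly pale.

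The genes outside the list that followed Chat most closely over the arrays were Olfr68 (r = 0.93), Chrnb2 (0.93), Olfr390 (0.92), Ocm (0.91) and Paqr4 (0.90). Chrnb2 encodes a subunit of neuronal nicotinic acetylcholine receptors, while Olfr68 and Olfr390 are olfactory receptor genes whose probe sets lay at percentiles 8.81 and 6.15 of brightness. For Prph these genes were Farp2 (0.96), Olfml1 (0.92), Uhrf1bp1 (0.92), Tmem41a (0.92) and Stk11ip (0.92). For Nefm they were Nme3 (0.94), Spryd3 (0.94), Dpysl2 (0.92), Slc40a1 (0.92) and Asic1 (0.92). Dpysl2 encodes a collapsin response mediator that binds tubulin in growing axons, and Slc40a1 encodes the iron exporter ferroportin. With 12 arrays and 19937 candidates, high values of r are found for any gene, and the sets changed with the arrays used, as given in the closing section.

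The mean level of genes that mark the position along the cord varied with several of the members, while most of these genes taken singly did not. Hox genes are expressed in bands along the body axis, so their levels depend on which segment was cut out. The mean of 21 measured Hox genes correlated with Prph at r = 0.90 (rho 0.90) and 0.83 without Il1a KO replicates 1 and 2, with Chat at 0.80 (0.48 without them), with Slc18a3 at 0.75 (0.43), with Nefm at 0.73 (0.44) and with Slc5a7 at 0.70 (0.08). Isl1 (0.11) and Mnx1 (0.18) showed little of this. Values of this size were not particular to the Hox mean. The mean of other cholinergic and motor neuron genes, listed further on, gave 0.89 with Prph, 0.77 with Slc18a3 and 0.71 with Chat. It gave 0.56 with Slc5a7 and 0.65 with Mnx1. The glial mean gave 0.80 with Nefm and the pan-neuronal mean 0.70 with Nefl, and each gave lower values with the other members. Hoxc10, a gene of the lumbar cord, correlated at 0.86 with both Chat and Prph, and Hoxd9 at 0.90 with Prph. Of the 21 Hox genes, however, only 6 reached an r of 0.5 with Chat and 6 with Prph, and the median r was 0.06 with Chat and 0.23 with Prph. Over the 10 members the median r of a Hox gene ran from -0.36 (Hoxa6) to 0.62 (Hoxc10) and lay below 0 for 8 of the 21, among them Hoxc6 (-0.39 with Chat and -0.56 with Slc18a3). The Hox mean ranged from 8.76 to 8.88 in the Il1a KO arrays and from 8.80 to 8.86 in the Il1b KO arrays, against 8.71 to 8.76 in wild type, and Il1a KO replicate 1 was the highest of all. Hoxd10 was also highest in that array (8.97), and its within-group SD of 0.326 was at percentile 99.8 of all genes. The share of Hoxd10 in the Hox mean was not tested. Hoxa10 was the 1 Hox gene called in a comparison, higher in the Il1b KO (log2 fold change 0.46, adjusted p = 0.00318), and its value in the Il1a KO was 0.27 (adjusted p = 0.188, but 0.0442 with array weights). The part of axial level in the values of the motor neuron genes was not tested.

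Other genes of motor neurons and cholinergic transmission, chosen as a list, gave 2 calls among 35 measured of 38. Uts2, which encodes the peptide urotensin 2 and is expressed in motor neurons, read 8.84, 8.87, 8.69 and 8.77 in the Il1b KO arrays, against 9.64, 9.52, 9.42 and 9.91 in wild type. All Il1b KO arrays lay below all wild type arrays, and Uts2 fell by 0.83 on the log2 scale (SE 0.086, adjusted p = 0.00019). It was also higher in the Il1a KO arrays (9.44, 9.44, 9.52 and 9.38) than in the Il1b KO arrays (log2 fold change 0.65, adjusted p = 0.00151). The Il1a KO did not differ from wild type by the test (-0.18, adjusted p = 0.627), except with array weights (-0.35, adjusted p = 0.0451). Those weights were 2.86 for wild type replicate 4, which had the highest Uts2, against 0.383, 0.574 and 0.327 for wild type replicates 1, 2 and 3. Of the 100 measured genes nearest to Uts2 on chromosome 4, 2 were also called in the Il1b KO, Masp2 (log2 fold change 0.94) and Faap20 (-0.25). Bche, which encodes butyrylcholinesterase, read 7.98, 7.80, 8.01 and 7.78 in the Il1b KO arrays, against 7.37, 7.48, 7.46 and 7.50 in wild type, and rose by 0.44 on the log2 scale (SE 0.069, adjusted p = 0.00605). Near Bche on chromosome 3, 4 of 100 measured genes were called in the Il1b KO, among them Rbm46 (0.63) and Gucy1a1 (-0.50). The share called in the Il1b KO over all genes was 0.813%.

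The remaining genes of that list were uncalled in every comparison. Ache, which encodes the acetylcholinesterase of synapses, gave -0.05 in the Il1a KO and 0.02 in the Il1b KO, and the identity factors Lhx3 and Isl2 gave -0.02 and 0.06 in the Il1a KO. In the Il1a KO 0 of 35 passed, and the 3 smallest p-values belonged to Mmp9 (-0.35, adjusted p = 0.32), the nicotinic subunit gene Chrna4 (0.13, adjusted p = 0.328) and Aldh1a2 (-0.30, adjusted p = 0.394). In the Il1b KO the third smallest belonged to Calcb (-0.26, adjusted p = 0.157). Mmp9 is also made by neutrophils. The median log2 fold change of the list was 0.03 in the Il1a KO and 0.04 in the Il1b KO.

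**Figure D4:**
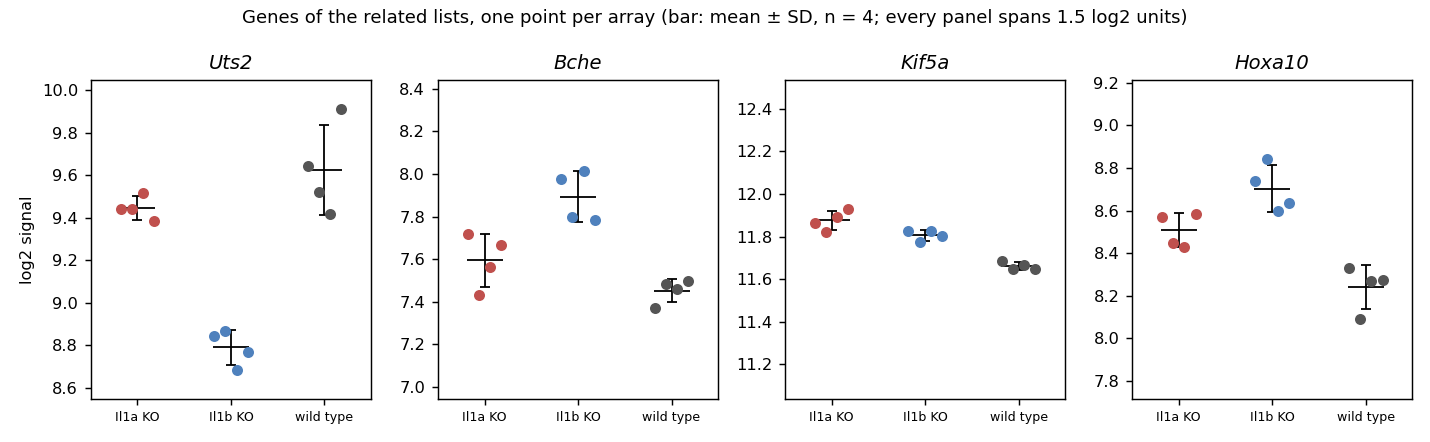
Log2 signal on every array of Uts2, Bche, Kif5a and Hoxa10, by group (Il1a KO, Il1b KO, wild type), with bars for the mean ± SD of 4 arrays and each panel spanning 1.5 log2 units. The Il1b KO arrays of Uts2 (8.69 to 8.87) lie below both other groups, and those of Bche and Hoxa10 lie above wild type.

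Receptors and ligands of the neurotrophic pathways that act through or beside Ret gave 0 calls among 20 measured of 23 in both knockouts. Their mean was 8.883 to 8.896 in the Il1a KO arrays, below all wild type arrays (8.907 to 8.929). The Il1b KO arrays gave 8.911 to 8.967. Of the 20 values, 9 lay above 0 in the Il1a KO and 12 in the Il1b KO. Gfra1, the co-receptor through which GDNF binds Ret, gave -0.14 in the Il1a KO (adjusted p = 0.328) and -0.06 in the Il1b KO, and Gdnf itself gave -0.03 and -0.05. Cntfr, the receptor subunit for ciliary neurotrophic factor, gave 0.19 in the Il1a KO (adjusted p = 0.311) and 0.20 in the Il1b KO (adjusted p = 0.137). Hgf in the Il1a KO gave -0.19 (adjusted p = 0.423), and in the Il1b KO Vegfa gave 0.20 (adjusted p = 0.087) and Ngfr -0.16 (adjusted p = 0.252).

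Of 43 measured genes of neuronal intermediate filaments, the axon cytoskeleton and axonal transport, 1 passed in the Il1a KO and 0 in the Il1b KO. The shares over all genes were 0.171% and 0.813%. In the Il1a KO 32 of 43 values lay above 0 (50.2% of all genes), and in the Il1b KO 35 (52%). The arrays did not overlap with wild type for 6 in the Il1a KO (5.06% of all genes) and 10 in the Il1b KO (7%). The list mean was 10.917 to 10.944 (Il1a KO) and 10.927 to 10.964 (Il1b KO), against 10.894 to 10.917 in wild type. Kif5a, a neuronal kinesin heavy chain that carries neurofilaments along axons, read 11.86, 11.82, 11.89 and 11.93 in the Il1a KO arrays, 11.83, 11.77, 11.82 and 11.80 in the Il1b KO arrays, and 11.68, 11.64, 11.67 and 11.65 in wild type. Both knockouts lay wholly above wild type, and Kif5a rose by 0.22 on the log2 scale in the Il1a KO (SE 0.035, adjusted p = 0.0279), while the Il1b KO gave 0.15 (adjusted p = 0.0915) and passed with the intensity trend (adjusted p = 0.0144) and with array weights (0.0208). The call in the Il1a KO was lost in 11 of 20 alternatives, including the one without Il1a KO replicate 1 (adjusted p = 0.0975). Ina, which encodes alpha-internexin, a partner of the neurofilament subunits in central axons, gave 0.11 (adjusted p = 0.513) and 0.09 (adjusted p = 0.387) in the Il1a KO and the Il1b KO. Vim, the vimentin gene of glia and infiltrating cells, gave -0.11 and -0.10, and Mfn2, a mitochondrial fusion gene, gave 0.11 and 0.13, with adjusted p-values of 0.129 to 0.393. Nes gave -0.19 in the Il1b KO (adjusted p = 0.212).

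The mean of general neuronal genes lay above wild type in both knockouts, with no single gene called. This mean of 13 measured pan-neuronal markers ranged from 11.15 to 11.21 in the Il1a KO arrays and from 11.15 to 11.23 in the Il1b KO arrays, against 11.09 to 11.13 in wild type, so both knockouts lay above all wild type arrays. None of the 13 passed in either knockout. In the Il1a KO 12 of 13 values lay above 0, beside 50.2% of all genes, and in the Il1b KO 10 of 13, beside 52%. The arrays did not overlap with wild type for 3 of the 13 in the Il1a KO (5.06% of all genes) and 5 in the Il1b KO (7%). Syt1 (-0.01 in the Il1a KO and -0.0035 in the Il1b KO), Snap25 (-0.01 in the Il1b KO) and Stmn2 (-0.0072 in the Il1b KO) gave values below 0. Thy1, Rbfox3 and Elavl3 had the smallest p-values, with log2 fold changes of 0.15, 0.12 and 0.11 in the Il1a KO and 0.17, 0.12 and 0.16 in the Il1b KO. The list's median was 0.06 in the Il1a KO and 0.09 in the Il1b KO, beside -0.02 and 0.0068 for the motor neuron and neurofilament genes. With the pan-neuronal mean of each array subtracted, still 0 of the 10 passed, and the nearest was Slc5a7 in the Il1b KO at -0.24 (adjusted p = 0.0601). Subtraction lowers all genes of an array by the same amount. The median of all genes moved to -0.07 in the Il1a KO and -0.08 in the Il1b KO, so the value of Slc5a7 includes that shift.

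The plot of all lists sets the members beside markers of the other cells that the segment could hold. Spinal interneuron markers gave 1 call among 19 measured, the calretinin gene Calb2, which rose by 0.34 in the Il1b KO (adjusted p = 0.0418) and lost the call in 11 of 20 alternatives. Over all genes 0.171% were called in the Il1a KO and 0.813% in the Il1b KO. Sensory neuron markers (11 measured), Schwann cell and root markers (6), skeletal muscle markers (10) and glial markers (12) gave 0 calls in either knockout. The mean of the sensory neuron markers ranged from 7.28 to 7.33 in the Il1a KO arrays and 7.27 to 7.39 in the Il1b KO arrays, against 7.27 to 7.45 in wild type. That of the Schwann cell and root markers ranged from 8.79 to 9.06 and 8.81 to 8.997, against 8.74 to 8.87 in wild type. The muscle mean was 7.15 to 7.20 in the Il1a KO and 7.09 to 7.20 in the Il1b KO, against 7.16 to 7.47 in wild type, where replicates 1 and 3 were the highest. All 10 muscle genes gave values below 0 in both knockouts, while 50.2% (Il1a KO) and 52% (Il1b KO) of all genes lay above 0. The glial mean was 10.66 to 10.76 and 10.62 to 10.71, against 10.58 to 10.68 in wild type. Blood and leukocyte markers (6 measured) gave 1 call, the neutrophil gene Ly6g, which fell by 0.55 in the Il1b KO (adjusted p = 0.00869) and gave -0.45 in the Il1a KO (adjusted p = 0.098, but 0.0215 with array weights). Their mean ranged from 7.71 to 7.92 in the Il1a KO arrays and 7.70 to 8.11 in the Il1b KO arrays, against 8.01 to 8.21 in wild type, so that the Il1a KO arrays lay below all wild type arrays. In the Il1a KO all 6 gave values below 0 (median -0.29), with Alas2, a gene of red cell precursors, at -0.47 (adjusted p = 0.105). The part of these cells in the values of the motor neuron genes was not tested.

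**Figure D5:**
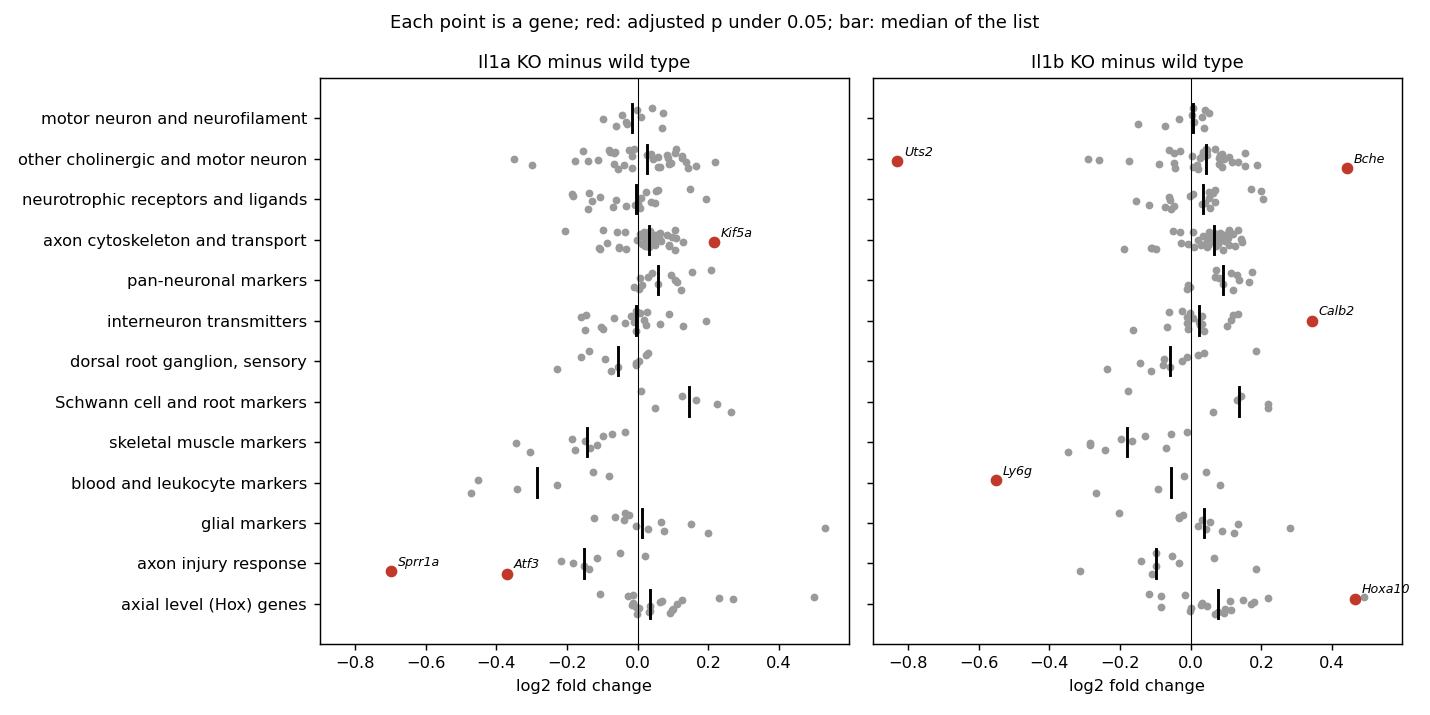
Log2 fold change of every measured gene of the member list (top row) and of 12 other lists, for Il1a KO minus wild type and Il1b KO minus wild type (grey points; red points passed an adjusted p of 0.05; black bars are list medians). The 10 members lie between -0.15 and 0.07 with none in red, and Uts2, at -0.83 in the Il1b KO, lies farthest from 0.

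Genes that injured neurons switch on were read as a further list. Of 9 measured genes of the axon injury response, 2 passed in the Il1a KO (0.171% of all genes) and 0 in the Il1b KO (0.813%). In the Il1a KO 8 of 9 values lay below 0 and in the Il1b KO 7, while 50.2% and 52% of all genes lay above 0. The arrays did not overlap with wild type for 4 in the Il1a KO (5.06% of all genes) and 2 in the Il1b KO (7%). The list mean was 9.05 to 9.14 (Il1a KO) and 9.20 to 9.30 (Il1b KO), against 9.25 to 9.38 in wild type. Sprr1a, a gene induced in neurons with cut axons, read 9.73, 9.85, 9.99 and 10.13 in the Il1a KO arrays, against 10.53, 10.43, 10.78 and 10.77 in wild type, and fell by 0.70 on the log2 scale (SE 0.095, adjusted p = 0.00773), but missed the threshold in the fit of 2 groups (adjusted p = 0.0503). Atf3, a stress-induced transcription factor of injured neurons and of other cells, read 9.14, 8.99, 9.04 and 8.99 in the Il1a KO arrays, against 9.35, 9.30, 9.48 and 9.51 in wild type, and fell by 0.37 (adjusted p = 0.0272), with the call lost in 8 of 20 alternatives. Neither passed in the Il1b KO (Sprr1a -0.31, adjusted p = 0.183, and Atf3 -0.11, adjusted p = 0.472), and for neither did the contrast of the knockouts pass (Sprr1a -0.38, adjusted p = 0.143, and Atf3 -0.26, adjusted p = 0.0998). With array weights Sprr1a did pass in the Il1b KO (-0.40, adjusted p = 0.0297), and the contrast of Atf3 passed with array weights (adjusted p = 0.0413) and with the intensity trend (0.0422). Gadd45a had the third smallest p in the Il1a KO (-0.22, adjusted p = 0.18).

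Genes next to the members on the chromosomes were also read. Among the 50 measured genes on each side of Slc5a7 and of Mnx1, 0 were called in either knockout. Chat and Slc18a3 had 1 called neighbour in the Il1b KO, Ogdhl (log2 fold change 0.23). Prph had 1 in the Il1a KO, Aqp6 (0.34), and Nefh had 1 in the Il1b KO, Cabp7 (0.21). Ret had A2m (-0.25) in the Il1a KO and Hrh1 (-0.18) in the Il1b KO. Entpd4, among the neighbours of Nefl and Nefm, was 0.72 higher in the Il1a KO (adjusted p = 2.26e-07), whereas Nefl and Nefm beside it were uncalled. Isl1 lies 5 measured genes from Nnt, which fell by 0.80 in the Il1a KO and by 0.79 in the Il1b KO, and Ccl28 and, in the Il1b KO, Elovl7 (0.69) were called nearby as well. Of the 68 measured neighbours of Isl1, 2.94% were called in the Il1a KO and 4.41% in the Il1b KO. Over all genes these shares were 0.171% and 0.813%. Isl1 itself gave -0.03 and 0.0076, and for the other members at most 1 neighbour was called in a knockout. The neighbours named here were chosen after their values were seen.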

How the data were processed

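Expression was measured with Affymetrix whole-transcript mouse arrays on 12 samples of injured cord. The deposited log2 values, 1 per probe set and array, were used as the authors made them. The tools named per the submitters' processing notes are Partek, limma, RMA and GCOS 1.4. That the log2 values are RMA summaries was inferred from these names and from the values (2.97 to 14.4). RMA gives all arrays the same distribution, so an overall shift in RNA amount would not show. The genome build of the annotation is not given in the sources used here. Positions and promoters are from RefSeq, GRCm38.p6.

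Of 35557 probe sets, 21789 had 1 symbol and stood for 19938 genes, with the brightest probe set of each gene used. The 3 group means were estimated together from the 12 arrays in limma 3.58.1 (R 4.3.3) and compared by two-sided moderated tests, no trend, with Benjamini-Hochberg adjustment over all genes of a comparison at 0.05. The fit was tested on simulated data. Array numbers limit the precision, and no depth applies. Correlations are Pearson r of deviations from group means, given as descriptions.

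The main fit did not pair samples by replicate number. Same-numbered arrays of different groups correlated between -0.374 and 0.441 in their deviations. Differently numbered arrays were not compared, so these values cannot tell whether the numbers pair the samples. Alternatives were the mean of all probe sets, a filter on the dimmest 25% of genes, an intensity trend, repeated quantile normalization, array weights, fits of 2 groups, a replicate block, subtraction of the pan-neuronal mean, and each array left out.

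Named genes are the 10 members, list genes past the threshold or with the 3 smallest p-values in a knockout, the 5 genes most like Chat, Prph and Nefm, and Il1a and Il1b. Other genes (such as Ache, Lhx3, Isl2, Gdnf, Ina and the Hox genes beyond Hoxa10) were named after their values were seen. The members and lists were chosen with earlier results of these data known.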

Additional observations from a re-analysis of the deposited data

Results flagged for a closer look

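Il1b KO replicate 4 read 10.53 for Ret, apart from the other 3 arrays of its group, which read 10.6 to 10.61. Wild type replicate 1 read 6.22 for Il1a, apart from the other wild type arrays at 5.74 to 5.78. A gap of this kind is flagged by chance in about 1 of 20 groups, and 60 groups of 4 arrays were examined. Without Il1b KO replicate 4 no motor neuron or neurofilament gene passed in any comparison.

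The contrast of the knockouts passed for 130 of all 19938 genes, among them 7 that are named here, and for 0 of the 10 members. Uts2 was 0.65 higher on the log2 scale in the Il1a KO than in the Il1b KO (limma adjusted p = 0.00151), with 4 of 4 Il1a KO arrays above all Il1b KO arrays. Il1b, the gene targeted in the Il1b KO, was 1.66 higher in the Il1a KO than in the Il1b KO (adjusted p = 5.98e-07), again with 4 of 4 arrays above. The other 5 are chromosomal neighbours of genes described above, named after their values were seen. Entpd4 (0.64, adjusted p = 2e-07) and Gucy1a1 (0.54, adjusted p = 0.00281) were higher in the Il1a KO than in the Il1b KO. Masp2 (-0.94, adjusted p = 8e-08), Rbm46 (-0.61, adjusted p = 0.00101) and Elovl7 (-0.55, adjusted p = 0.000979) were lower in the Il1a KO than in the Il1b KO.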

How the results depend on the processing

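No motor neuron or neurofilament gene was called in any of the 3 comparisons under the 8 alternative settings or in the 12 fits that left out 1 array, where the count of members called was 0 to 0. The smallest adjusted p over these was 0.168 in the Il1a KO (Nefl, array weights), 0.0601 in the Il1b KO (Slc5a7, pan-neuronal mean subtracted) and 0.247 between the knockouts (Slc5a7, without Il1a KO replicate 2). Mnx1 could not be fitted under the filter on dim genes. Uncalled values crossed 0 in 5 of 79 values in the Il1a KO, 13 of 79 in the Il1b KO and 1 of 79 between the knockouts under the settings, and 10, 12 and 7 of 120 with an array left out. Among these settings, subtraction of the pan-neuronal mean moved the median of all genes to -0.07 in the Il1a KO and -0.08 in the Il1b KO. With the replicate block, 0 members and 26, 120 and 105 genes were called, and no call of a member changed. With that block Sprr1a passed in the Il1b KO (adjusted p = 0.0329) and between the knockouts (0.0106) and Ly6g in the Il1a KO (0.0302), whereas Kif5a (0.102) and Atf3 (0.0664) in the Il1a KO and Calb2 in the Il1b KO (0.0889) did not.

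Over all genes, the counts of 34 (Il1a KO), 162 (Il1b KO) and 130 (between the knockouts) became 306, 1145 and 244 with array weights. Wild type replicate 4 had a weight of 2.86, against 0.383, 0.574 and 0.327 for wild type replicates 1, 2 and 3. All weighted comparisons with wild type therefore leaned mostly on that array. The intensity trend gave 72 for the Il1a KO and 303 for the Il1b KO, fits of 2 groups gave 15 and 85, and subtraction of the pan-neuronal mean gave 289 for the Il1b KO. Leaving out 1 array gave 18 to 49, 106 to 177 and 88 to 146, with 18 for the Il1a KO without wild type replicate 4 and 19 without Il1a KO replicate 3 or 4. For the Il1b KO it gave 106 without wild type replicate 4 and 107 without Il1b KO replicate 1. The cause was not tested. The calls of Uts2, Bche, Hoxa10 and Ly6g in the Il1b KO held in each alternative in which they could be fitted. Bche between the knockouts passed with array weights (adjusted p = 0.033). Of the 15 genes most like Chat, Prph and Nefm, 7 remained with group means kept in and 1 with the 2 arrays farthest from the member's median left out, where fewer arrays enter.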
